A study of Caenorhabditis elegans with 12 samples.

Results

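The genes described here are the fat metabolism genes of Caenorhabditis elegans, measured by RNA sequencing of whole adults that were held without food. The set holds every gene with a WormBase symbol made of fat-, elo-, acs-, lipl-, cpt-, acdh-, ech- or acox- and a number, plus hacd-1, icl-1 and fmo-2. Members needed at least 60 counts over the 12 libraries, and acdh-2 is not part of the set. In all, 81 of the 46904 listed genes are members, of 13971 genes that reached the same minimum. Among the 84 candidates, lipl-8 had 0 counts, lipl-6 had 53 and acs-24 had 56, so these were left out. The members are 7 fatty acid desaturases (fat), 9 elongases (elo), 21 acyl-CoA synthetases (acs), 6 lysosomal lipases (lipl), 6 carnitine palmitoyltransferases (cpt), 12 acyl-CoA dehydrogenases (acdh), 10 enoyl-CoA hydratases (ech), 7 acyl-CoA oxidases (acox) and the 3 single genes.

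The libraries come from 4 groups of 3 biological replicates, each a pool of synchronized day 1 adults. The groups are pmk-1(km25) mutants in 100 mM NaCl, the same mutants in 100 mM KCl, wild-type N2 animals in 100 mM NaCl, and N2 animals in 100 mM KCl. PMK-1 is the p38 MAP kinase of worm immunity and stress signalling, and the study asked which genes respond to low potassium, its NaCl arm, and to pmk-1. Animals of all 4 groups were washed off their OP50-1 bacteria and kept in the salt solution without food for 4 h. With no fed group, a change caused by the food withdrawal itself was not measured. Both sodium and potassium differ between the solutions, and the mutant is represented by 1 allele.

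Animals deprived of food turn from fat synthesis to fat use. Lysosomal lipases free fatty acids from stored lipid, acyl-CoA synthetases activate them, carnitine palmitoyltransferases carry the long chains into mitochondria, and dehydrogenases, hydratases and thiolases shorten them by beta-oxidation. Very long chains, and the side chains of the ascaroside pheromones, are shortened in peroxisomes, where acyl-CoA oxidases take the first step. Desaturases and elongases build the unsaturated and long-chain fatty acids of membranes, and in worms most of this work is done in the intestine and hypodermis. The nuclear receptor NHR-49 drives acs-2 in fasting and delta-9 desaturase genes in fed worms, and HLH-30 raises lysosomal lipase genes in fasting, which MXL-3 represses in fed worms.

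Library totals ran from 8931797 to 11445709 counts, and 13353 genes, 80 members among them, passed the low-count filter of the test. acs-9 was the member not tested. Values below are CPM, that is counts scaled to a common library size with TMM factors, and fold changes are on the log2 scale with their standard errors after ±. A call is an adjusted p under 0.05 by edgeR's quasi-likelihood method, adjusted by Benjamini-Hochberg across every gene tested. The pmk-1 gene itself was counted in every library, with 231, 200 and 180 counts in pmk-1 NaCl, 206, 242 and 206 in pmk-1 KCl, 217, 326 and 441 in wild-type NaCl and 328, 308 and 358 in wild-type KCl. The mutant libraries lay below all wild-type libraries but the 1 with 217 counts, and how much of the gene the km25 allele removes is not given in the sources used here. The genotypes differed in sperm and embryo markers. The summed level of 20 sperm marker genes was 692 to 2532 CPM in pmk-1 libraries and 6.72 to 109 CPM in wild-type libraries, and 18 of the 18 tested were called higher in pmk-1 in NaCl and 16 of 18 in KCl. Of 16 embryo markers tested, 11 were called lower in pmk-1 in NaCl and 10 in KCl. Of 10 intestine markers, 3 were higher and 1 lower in pmk-1 in NaCl, and 2 were higher and 1 lower in KCl. Of 8 hypodermis markers, 2 were higher and 1 lower in each salt, and of 7 body wall muscle markers 2 were higher and 0 lower in each salt. Of 6 yolk genes, 0 were higher, while 1 was lower in NaCl and 4 were lower in KCl. Of all tested genes, 16.7% were called higher and 10.1% lower in pmk-1 in NaCl, and 15.2% and 9.18% in KCl. The counts of these short marker lists were not tested against those shares. By a chi-square per degree of freedom between library pairs, the first replicate also stood apart from the others in pmk-1 NaCl, pmk-1 KCl and wild-type NaCl. In wild-type KCl replicates 1 and 2 were closest (9.39), and replicate 3 lay away from both (29.8 and 30.95). Ribosomal RNA genes took 3.52 to 4.997% of counts in pmk-1 NaCl, 0.605 to 3.26% in pmk-1 KCl, 0.931 to 2.51% in wild-type NaCl and 0.671 to 2.59% in wild-type KCl. The part of these differences in the results below was not tested, and in whole animals fewer cells of a type and less RNA per cell cannot be told apart.

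The members together held 0.943 to 1.14% of all counts in pmk-1 libraries and 0.881 to 1.02% in wild-type libraries. Per kilobase of exon, the most abundant members were acdh-1, an acyl-CoA dehydrogenase of the propionate shunt, at 868 CPM per kb over the 12 libraries, ech-6, the hydratase of the next step, at 557, fat-2, the delta-12 desaturase, at 391, icl-1, the glyoxylate cycle enzyme, at 343, and fat-1, the omega-3 desaturase, at 279.7. The lowest were lipl-1 at 0.813, acdh-6 at 0.741 and acs-9 at 0.353 CPM per kb. Among the carnitine palmitoyltransferases, cpt-1 stood highest at 109 CPM per kb and cpt-3 lowest at 1.704. Among the lipases, lipl-5 stood highest at 91.05 CPM per kb, and lipl-1 to lipl-4 lay between 0.813 and 6.49. Some values are uncertain because the strandedness of the libraries is not given: 13 members overlap another gene on the opposite strand and 2 overlap one on the same strand, among them fat-5 with twk-42, acs-7 with C01G6.9, acox-1.4 with F08A8.8 and elo-7 with F56H11.2.

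**Figure D1:**
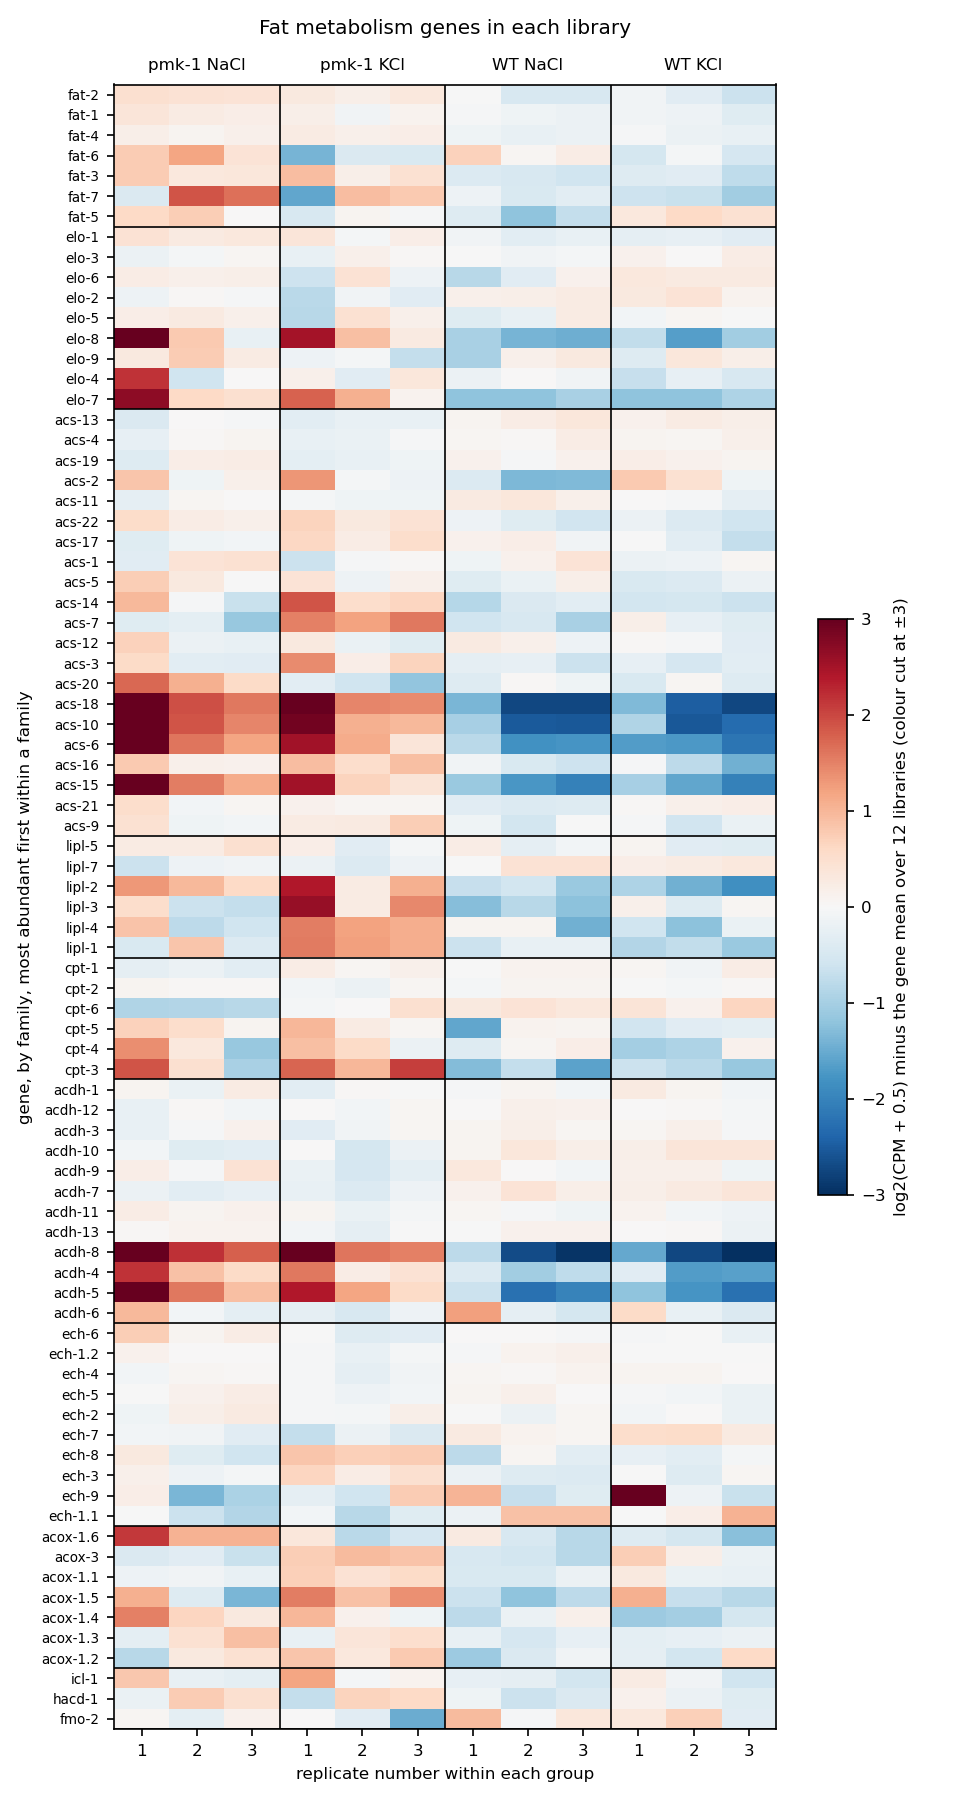
Each row is 1 of the 81 fat metabolism genes and each column 1 library, grouped by family and by group; colour gives log2(CPM + 0.5) minus the gene's mean over the 12 libraries, cut at ±3. Most rows are near white, while acs-6, acs-10, acs-15, acs-18, acdh-5, acdh-8, elo-7 and elo-8 are red in all or nearly all pmk-1 libraries, deepest in the first replicates, and blue in wild-type libraries.

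More of these genes were called between genotypes than between salts. In NaCl, 22 of the 80 tested members (27.5%) were called higher in pmk-1 than in wild type and 5 (6.25%) lower, where 16.7% and 10.1% of all tested genes were called in those directions. In KCl, 27 members (33.75%) were called higher and 5 (6.25%) lower, against 15.2% and 9.18% of all genes. The median log2 fold change of the members was 0.41 in NaCl and 0.30 in KCl, beside 0.057 and 0.020 over all genes. Called higher in both salts were 17 members, and called lower in both were acdh-7 and acdh-10. Of the members called higher, 8 in NaCl and 9 in KCl were under the low-count limit of the filter in wild type and entered the test through the mutant libraries. They are part of the 22 and 27. In wild type 12.5% of the tested members and 13.1% of all tested genes were under this limit. The share among all genes called higher was not counted. Under the limit means that fewer than 3 libraries of the genotype reached 1.05 CPM before TMM scaling. Counts depended on single libraries, for the members and over all genes. In NaCl the member counts fell to 14 higher and 1 lower without wild-type NaCl 2 and to 12 and 2 without wild-type NaCl 3. Over all genes the NaCl counts were 2232 higher and 1349 lower with all libraries. They fell to 1076 and 625 without wild-type NaCl 2 and to 1064 and 659 without wild-type NaCl 3. In KCl the member counts fell to 12 and 2 without wild-type KCl 2 and to 10 and 3 without wild-type KCl 3. Without pmk-1 KCl 2 or 3 they fell to 3 lower. Over all genes the KCl counts fell from 2031 and 1226 to 980 and 769 without wild-type KCl 2. Without wild-type KCl 3 they were 822 and 568. Without pmk-1 KCl 2 or 3, 885 and 1045 genes were lower. With an embryo marker score as a covariate, which does not overlap between the genotypes, 0 members were called higher and 0 lower in NaCl, and 0 higher and 1 lower in KCl. Over all 13353 genes that fit called 3 higher and 65 lower in NaCl, and 2 and 119 in KCl. The loss of calls was therefore not particular to the members.

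The salt comparisons called few members. In pmk-1 mutants, NaCl against KCl raised 3 of 80 members (acs-20, acox-1.6 and fat-6) and lowered 3 (acs-7, acox-3 and cpt-6), that is 3.75% each way, where 2.33% of all genes were called higher and 0.382% lower. In wild type, 0 members were called in either direction, where 0.172% of all genes were called higher and 0.015% lower, and 3 members higher and 6 lower had an unadjusted p under 0.05. DESeq2 called 0 higher and 2 lower there, acox-3 and fat-5, beside 106 higher and 27 lower over all genes. The test of the difference between the salt effects of the genotypes called 0 members with edgeR, where 0.0374% of all genes were called with a larger value in pmk-1 and 0% with a smaller one. At an unadjusted p under 0.05 that test held 7 members larger and 6 smaller in pmk-1. DESeq2 called acs-20 and fat-5 larger and acs-7, acs-17 and cpt-6 smaller, beside 81 larger and 28 smaller over all genes. Blocking on the replicate number gave pmk-1 salt counts of 5 higher and 6 lower, adding acdh-9 and ech-6 to the rises and acox-1.1, acs-17 and lipl-3 to the falls, and wild-type counts of 0 and 2, acs-2 and acox-3. Over all genes the block gave 533 and 146 in pmk-1 and 108 and 23 in wild type. With no block, leaving out pmk-1 KCl 3 left 0 of the 3 member rises in pmk-1. Leaving out pmk-1 NaCl 2 or pmk-1 KCl 2 left 1, and leaving out wild-type KCl 3 gave 5 falls. Over all genes 311 rose in pmk-1 with all libraries, 97 without pmk-1 KCl 3, 159 without pmk-1 NaCl 2 and 148 without pmk-1 KCl 2. Falls over all genes went from 51 to 45 without wild-type KCl 3. Fitting the pmk-1 libraries by themselves called 0 rises and 2 falls, acs-7 and acox-3, beside 43 rises and 5 falls over all genes.

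Whether the 3 replicates of 2 groups overlap was also counted for each member. In pmk-1, 12 members (15%) had all NaCl libraries above all KCl libraries and 10 (12.5%) below, where 9.78% and 6.34% of all genes did. In wild type, 6 (7.5%) lay above and 8 (10%) below, against 6.93% and 5.6%. Between genotypes in NaCl, 29 (36.25%) lay higher in pmk-1 and 9 (11.25%) lower, against 29.1% and 22.3%, and in KCl 32 (40%) and 13 (16.25%), against 24.9% and 22.9%.

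**Figure D2:**
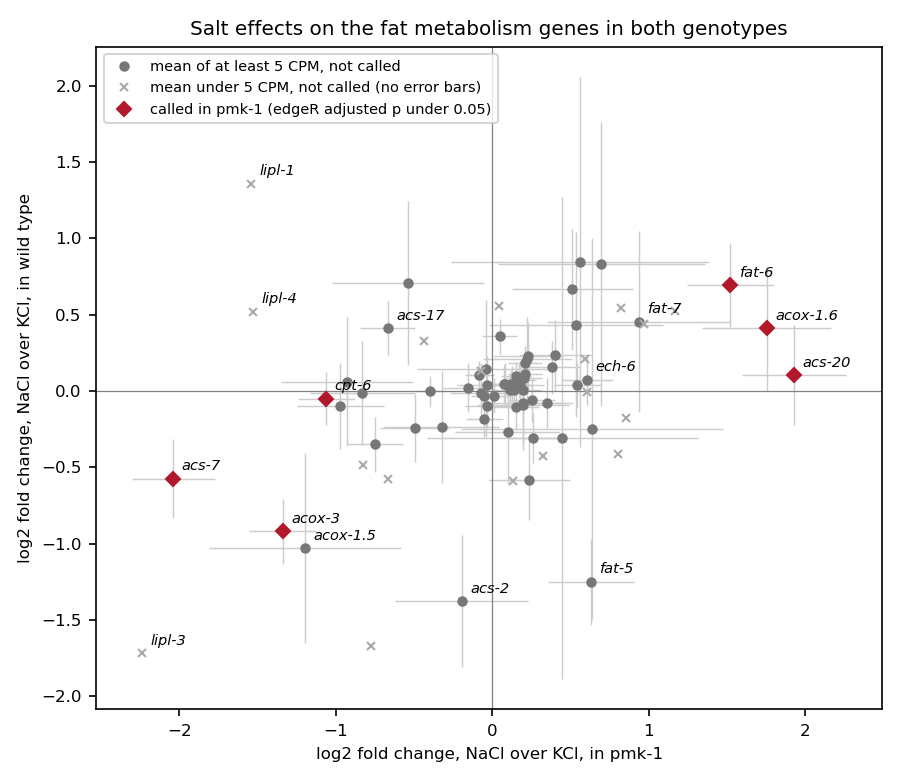
Each point is 1 tested member, with the log2 fold change of NaCl over KCl in pmk-1 on the horizontal axis and in wild type on the vertical axis, with standard errors for members averaging at least 5 CPM. The 6 members called in pmk-1 lie between -2.04 and 1.93 on the horizontal axis, fat-6, acs-7 and acox-3 lie off 0 in the same direction in wild type, and acs-2 and fat-5 lie low on the vertical axis and not on the horizontal one.

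The desaturases that make polyunsaturated fatty acids were higher in pmk-1 mutants. FAT-2 inserts the delta-12 double bond, FAT-1 the omega-3 bond, and FAT-3 and FAT-4 are the delta-6 and delta-5 desaturases of the path to arachidonic and eicosapentaenoic acid. Of the 7 desaturase genes, 5 were called higher in pmk-1 in NaCl and 3 in KCl, and 0 lower in either salt, where 16.7% and 15.2% of all tested genes were called higher. The summed level of the 7 was 2226 ± 156 CPM in pmk-1 NaCl, 1745 ± 75.7 CPM in pmk-1 KCl, 1416 ± 174 CPM in wild-type NaCl and 1278 ± 143 CPM in wild-type KCl (SD, n = 3 each).

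fat-3 had 245, 179 and 183 CPM in pmk-1 NaCl, 277, 162 and 200.02 CPM in pmk-1 KCl, 109, 103 and 95.3 CPM in wild-type NaCl and 111, 114.7 and 84.5 CPM in wild-type KCl. The genotypes did not overlap in either salt, and the first replicate was highest in both mutant groups. The difference was 0.98 ± 0.198 in NaCl (edgeR adjusted p = 0.00638) and 1.04 ± 0.198 in KCl (edgeR adjusted p = 0.00527), and neither call was lost when any 1 library was left out. fat-2 stood at 658, 637 and 627 CPM in pmk-1 NaCl, 577, 535 and 592 CPM in pmk-1 KCl, 469, 342 and 338 CPM in wild-type NaCl and 444, 373 and 301 CPM in wild-type KCl. Every mutant library lay above every wild-type library, with differences of 0.74 ± 0.16 in NaCl (edgeR adjusted p = 0.00742) and 0.61 ± 0.16 in KCl (edgeR adjusted p = 0.0174). The fat-2 call in KCl was lost without wild-type KCl 2 or 3 (edgeR adjusted p between 0.0615 and 0.0639).

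fat-4 had 279, 261 and 275 CPM in pmk-1 NaCl, 291, 274 and 282 CPM in pmk-1 KCl, 225, 211 and 219 CPM in wild-type NaCl and 239, 218 and 213 CPM in wild-type KCl. Again the genotypes did not overlap, and the difference was 0.32 ± 0.084 in NaCl (edgeR adjusted p = 0.0182) and 0.34 ± 0.084 in KCl (edgeR adjusted p = 0.01496). These small differences lost their call in NaCl without pmk-1 NaCl 1 or 3, or wild-type NaCl 2 or 3 (edgeR adjusted p between 0.0521 and 0.0928) and in KCl without wild-type KCl 2 or 3 (edgeR adjusted p between 0.0552 and 0.0696). fat-1 had 508, 463 and 447 CPM in pmk-1 NaCl, 446, 363 and 421 CPM in pmk-1 KCl, 381, 357 and 345 CPM in wild-type NaCl and 363, 353 and 305 CPM in wild-type KCl. It passed in NaCl (log2 fold change 0.39 ± 0.11, edgeR adjusted p = 0.0246) and not in KCl (log2 fold change 0.27 ± 0.11, edgeR adjusted p = 0.0974). The mutant libraries lay above the wild-type ones in both salts, in KCl very narrowly (363.483 CPM in pmk-1 KCl 2 against 363.335 CPM in wild-type KCl 1). Its call was lost without pmk-1 NaCl 1 or 2, or wild-type NaCl 2 or 3 (edgeR adjusted p between 0.0635 and 0.112). Salt changed none of these 4 genes past the threshold in either genotype, with log2 values between -0.073 and 0.204 in pmk-1. All pmk-1 NaCl libraries of fat-2 lay above all pmk-1 KCl libraries, and so did those of fat-1, narrowly (447 against 446 CPM). On chromosome IV of WBcel235, fat-4 (9799429 to 9802226) and fat-3 (9803023 to 9806119) lie 796 bases apart on the same strand, and fat-1 (13315644 to 13318811) and fat-2 (13323873 to 13326395) lie 5061 bases apart.

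The delta-9 desaturases, which introduce the first double bond, behaved otherwise. FAT-6 and FAT-7 act on stearic acid and FAT-5 on palmitic acid, and all are known to respond to feeding state. fat-6 had 353, 475 and 277 CPM in pmk-1 NaCl, 79.1, 154 and 151.5 CPM in pmk-1 KCl, 334, 217 and 241 CPM in wild-type NaCl and 145, 198 and 147 CPM in wild-type KCl. NaCl libraries lay above KCl libraries in both genotypes, by 1.52 ± 0.28 in pmk-1 (edgeR adjusted p = 0.0142) and by 0.69 ± 0.28 in wild type, which did not pass (edgeR adjusted p = 0.955). The difference between these effects was 0.83 ± 0.39 (edgeR adjusted p = 0.99997), and the pmk-1 call was lost without pmk-1 NaCl 2, or pmk-1 KCl 3 (edgeR adjusted p between 0.0547 and 0.0709). fat-7 stood at 74.4, 371 and 315 CPM in pmk-1 NaCl, 33.9, 191 and 173 CPM in pmk-1 KCl, 89.6, 72.7 and 79.9 CPM in wild-type NaCl and 65.2, 63.3 and 48.02 CPM in wild-type KCl. Its first replicates in pmk-1 were far below the others, so that the salts overlapped in the mutant, while in wild type all NaCl libraries lay above all KCl libraries. fat-7 passed in no comparison, with 0.94 ± 0.59 for salt in pmk-1 (edgeR adjusted p = 0.549) and 1.65 ± 0.59996 for genotype in NaCl (edgeR adjusted p = 0.0614). With the replicate number as a block fat-7 was called higher in pmk-1 in NaCl (1.39 ± 0.52, edgeR adjusted p = 0.0499). Without the first replicates of all 4 groups it was called higher in pmk-1 in NaCl (2.14 ± 0.15, edgeR adjusted p = 1.01e-06) and in KCl (1.74 ± 0.15, edgeR adjusted p = 5.31e-06). In that fit fat-6 was called higher in pmk-1 in NaCl too (edgeR adjusted p = 0.0292). Without the first replicates of all 4 groups fat-7 was also called higher with NaCl in pmk-1 (log2 fold change 0.86 ± 0.14, edgeR adjusted p = 0.00375). fat-6 and fat-7 are close paralogs, and how reads fitting both were divided is not given in the sources used here.

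fat-5 had salt values of opposite sign in the genotypes, neither of which passed with edgeR. It had 17.3, 19.2 and 11.4 CPM in pmk-1 NaCl, 7.97, 12.04 and 10.98 CPM in pmk-1 KCl, 8.57, 4.57 and 6.67 CPM in wild-type NaCl and 14.3, 17.2 and 15.6 CPM in wild-type KCl. In wild type every NaCl library lay below every KCl library (log2 fold change -1.25 ± 0.28), which did not pass with edgeR (adjusted p = 0.147) and passed with DESeq2 (adjusted p = 0.00303) and without the first replicates of all groups (edgeR adjusted p = 0.0246). In pmk-1 the value was 0.63 ± 0.28 with overlapping salts (edgeR adjusted p = 0.347). The difference between the salt effects was 1.88 ± 0.395, with an edgeR adjusted p of 0.161 and a DESeq2 adjusted p of 0.00158. Between genotypes fat-5 was called higher in pmk-1 in NaCl (log2 fold change 1.28 ± 0.28, edgeR adjusted p = 0.00867), a call that no left-out library ended, while its KCl value was -0.604 ± 0.28 (edgeR adjusted p = 0.131).

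**Figure D3:**
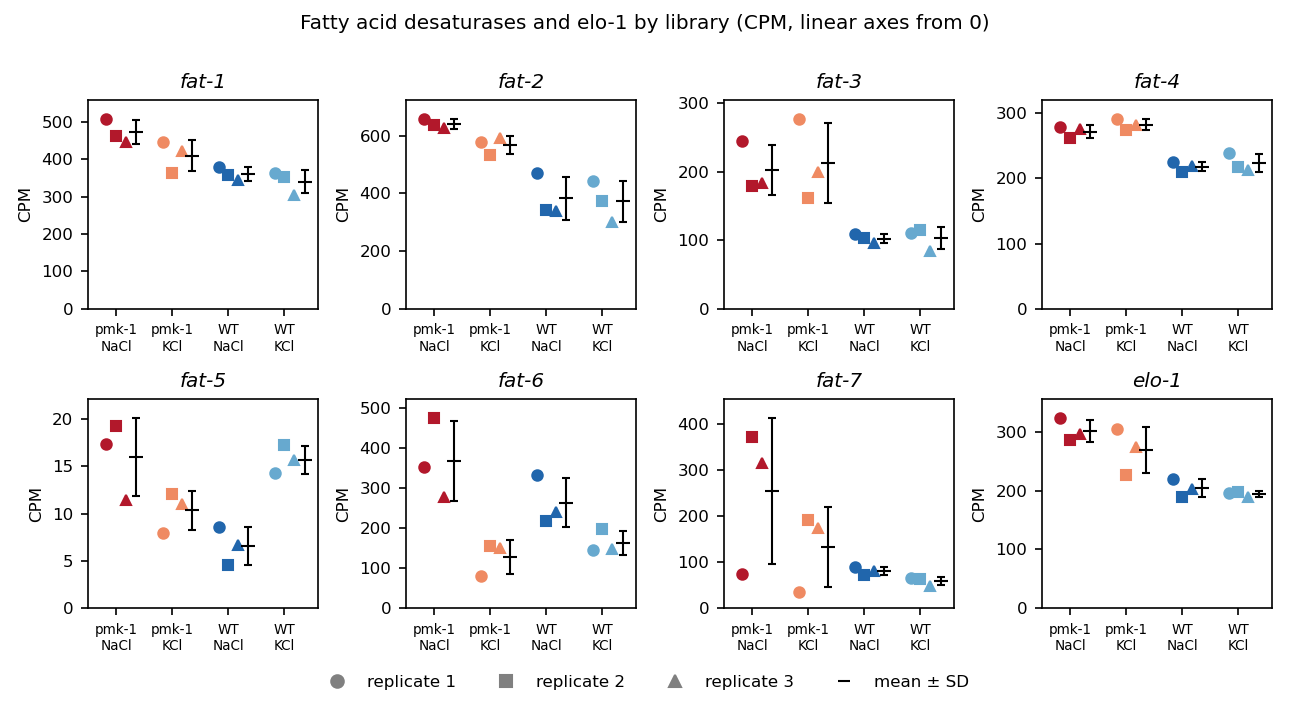
CPM of the 7 desaturase genes and elo-1 in each library, by group, with replicate numbers as symbols and the group mean ± SD (n = 3) beside them. fat-2, fat-3, fat-4 and elo-1 are higher in all pmk-1 libraries than in the wild-type libraries, fat-6 is higher in NaCl than in KCl in both genotypes, and the first pmk-1 replicates of fat-7 lie at 74.4 CPM in NaCl and 33.9 CPM in KCl.

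Among the elongases, elo-1, which lengthens the polyunsaturated chains made by FAT-3, moved with the desaturases. It had 324, 286 and 297 CPM in pmk-1 NaCl, 305, 227 and 275 CPM in pmk-1 KCl, 221, 189.7 and 203 CPM in wild-type NaCl and 196, 199 and 189 CPM in wild-type KCl. All mutant libraries lay above all wild-type libraries, by 0.57 ± 0.12 in NaCl (edgeR adjusted p = 0.00655) and 0.47 ± 0.12 in KCl (edgeR adjusted p = 0.0142), and the KCl call was lost without pmk-1 KCl 1, or wild-type KCl 3 (edgeR adjusted p between 0.0531 and 0.0552). elo-2, which lengthens palmitic acid, was lower in the mutant in KCl, with 27.96, 45.7 and 38.9 CPM in pmk-1 KCl, against 61.03, 65.5 and 53.1 CPM in wild-type KCl. This fall of elo-2 (log2 fold change -0.67 ± 0.16, edgeR adjusted p = 0.0136) was lost without wild-type KCl 2 (edgeR adjusted p = 0.0593), and in NaCl elo-2 stood at -0.24 ± 0.16 (edgeR adjusted p = 0.277). The elongases of monomethyl branched-chain fatty acids, elo-5 and elo-6, passed in no comparison. elo-6 had 30.4, 42.8 and 59.4 CPM in wild-type NaCl, against 67.5, 65.9 and 65.6 CPM in wild-type KCl, without overlap between the salts in wild type (log2 fold change -0.58 ± 0.26, edgeR adjusted p = 1.000000). In NaCl and in KCl 3 of 9 elongases were called higher in pmk-1, elo-1 and the nearly silent elo-7 and elo-8 described further down, beside 16.7% and 15.2% of all tested genes. elo-7 and elo-8 were under the low-count limit in wild type and entered the test through the mutant libraries.

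Acyl-CoA synthetases gave both the largest salt fall and the largest salt rise among the called members. acs-7 attaches building blocks to ascaroside pheromones. It had 11.3, 11.9 and 6.43 CPM in pmk-1 NaCl, 42.6, 34.3 and 44.95 CPM in pmk-1 KCl, 9.46, 10.3 and 7.199 CPM in wild-type NaCl and 16.5, 12.3 and 11.3 CPM in wild-type KCl. In the mutant the NaCl libraries lay below all KCl libraries and overlapped the wild-type NaCl libraries, and in wild type the salts did not overlap either. Salt lowered acs-7 in pmk-1 (log2 fold change -2.04 ± 0.26, edgeR adjusted p = 0.00205), which no left-out library and no other setting tried ended. In wild type its value was -0.58 ± 0.26 (edgeR adjusted p = 1.000000), and the difference between the genotypes was -1.46 ± 0.36 (edgeR adjusted p = 0.282, DESeq2 adjusted p = 0.0142). Between genotypes acs-7 was higher in pmk-1 in KCl (log2 fold change 1.602 ± 0.26, edgeR adjusted p = 0.00313) and not in NaCl (log2 fold change 0.14 ± 0.26, edgeR adjusted p = 0.699).

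acs-20 belongs to the fatty acid transport protein family and is needed for the cuticle barrier. Its values were 36.8, 22.9 and 16.3 CPM in pmk-1 NaCl, 8.49, 6.96 and 4.45 CPM in pmk-1 KCl, 8.13, 10.9 and 9.83 CPM in wild-type NaCl and 7.69, 11.1 and 8.02 CPM in wild-type KCl. The pmk-1 NaCl libraries lay above the 9 others, which overlapped among themselves. Its rise with NaCl in pmk-1 (log2 fold change 1.93 ± 0.33, edgeR adjusted p = 0.00985) was lost without pmk-1 KCl 2 or 3 (edgeR adjusted p between 0.0564 and 0.07104) and when the pmk-1 libraries were fitted by themselves (edgeR adjusted p = 0.152). In wild type acs-20 stood at 0.104 ± 0.33 (edgeR adjusted p = 1.000000), and the difference of the salt effects was 1.82 ± 0.46 (edgeR adjusted p = 0.294, DESeq2 adjusted p = 0.0352). In NaCl it was also higher in the mutant than in wild type (log2 fold change 1.39 ± 0.33, edgeR adjusted p = 0.0108).

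acs-2, a mitochondrial acyl-CoA synthetase that fasting raises, had 318, 164 and 199 CPM in pmk-1 NaCl, 449.98, 170.1 and 159 CPM in pmk-1 KCl, 134, 69.8 and 71.4 CPM in wild-type NaCl and 307, 245 and 164 CPM in wild-type KCl. In wild type each NaCl library lay below each KCl library, while in the mutant the salts overlapped. The wild-type difference of -1.38 ± 0.43 did not pass (edgeR adjusted p = 0.513). It passed with the replicate number as a block (-1.42 ± 0.19, edgeR adjusted p = 0.00555) and without the first replicates of all groups (-1.52 ± 0.17, edgeR adjusted p = 0.00149). Without the first replicates the difference of the salt effects of acs-2 was also called (1.604 ± 0.24, edgeR adjusted p = 0.00964), beside 1.18 ± 0.605 (edgeR adjusted p = 0.99997) over all 12 libraries. Between genotypes in NaCl acs-2 was higher in pmk-1 (log2 fold change 1.31 ± 0.43, edgeR adjusted p = 0.0444), a call lost without pmk-1 NaCl 1 or 3, wild-type NaCl 2 or 3, or wild-type KCl 1, 2 or 3 (edgeR adjusted p between 0.0511 and 0.176). In KCl the value was 0.12 ± 0.42 (edgeR adjusted p = 0.845).

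Other synthetases differed mainly between genotypes. acs-22, the close relative of acs-20, had 145, 116 and 109.8 CPM in pmk-1 NaCl, 157, 122 and 134 CPM in pmk-1 KCl, 88.6, 77.2 and 66.1 CPM in wild-type NaCl and 87.9, 75.1 and 65.3 CPM in wild-type KCl. Its genotypes did not overlap, with 0.68 ± 0.16 in NaCl (edgeR adjusted p = 0.0115) and 0.85 ± 0.16 in KCl (edgeR adjusted p = 0.00506), and the NaCl call was lost without wild-type NaCl 3 (edgeR adjusted p = 0.05903). acs-14 was higher in the mutant in KCl, with 100.1, 38.7 and 42.2 CPM in pmk-1 KCl, against 17.95, 18.3 and 16.8 CPM in wild-type KCl (log2 fold change 1.77 ± 0.43, edgeR adjusted p = 0.0135, lost without wild-type KCl 3 (edgeR adjusted p = 0.06201)). acs-17 stood at 67.5, 79.8 and 82.6 CPM in pmk-1 NaCl, 135, 103 and 128 CPM in pmk-1 KCl, 96.5, 101 and 81.998 CPM in wild-type NaCl and 87.1, 70.1 and 53.03 CPM in wild-type KCl. In KCl acs-17 was higher in pmk-1 than in wild type (log2 fold change 0.797 ± 0.18, edgeR adjusted p = 0.00946), and its fall with NaCl in pmk-1 (log2 fold change -0.67 ± 0.18, edgeR adjusted p = 0.0785) passed only with other settings, among them the replicate block (edgeR adjusted p = 0.0462). acs-13, one of the most abundant synthetases per kilobase, was lower in pmk-1 in KCl, with 410.2, 439 and 437 CPM in pmk-1 KCl, against 563, 612 and 578 CPM in wild-type KCl (log2 fold change -0.45 ± 0.13, edgeR adjusted p = 0.0255). This call was lost without pmk-1 KCl 1, 2 or 3, or wild-type KCl 2 or 3 (edgeR adjusted p between 0.05296 and 0.0866). acs-4, abundant too, passed in no comparison, with log2 values between -0.25 and 0.11.

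The rare lysosomal lipases were higher in pmk-1 mutants in KCl. Of 6 lipase genes tested, lipl-1, lipl-2, lipl-3 and lipl-4 were called higher there, and lipl-2 alone in NaCl, where 15.2% and 16.7% of all tested genes were. All of these are scarce, and lipl-2, the most abundant, had 14.5, 11.4 and 8.62 CPM in pmk-1 NaCl, 31.3, 6.68 and 12.2 CPM in pmk-1 KCl, 3.23, 3.64 and 2.28 CPM in wild-type NaCl and 2.67, 1.71 and 1.203 CPM in wild-type KCl. Its genotypes did not overlap in either salt, with 1.92 ± 0.52 in NaCl (edgeR adjusted p = 0.0193, lost without pmk-1 NaCl 1, or wild-type NaCl 2 or 3 (edgeR adjusted p between 0.05499 and 0.0832)) and 3.16 ± 0.54 in KCl (edgeR adjusted p = 0.00395), the second not ended by any left-out library. lipl-3 had 2.397, 0.792 and 0.728 CPM in pmk-1 NaCl, 11.8, 1.88 and 4.97 CPM in pmk-1 KCl, 0.334, 0.624 and 0.351 CPM in wild-type NaCl and 1.74, 1.05 and 1.604 CPM in wild-type KCl. The first pmk-1 KCl library was far above the rest, and the KCl libraries lay above the NaCl libraries in wild type. For lipl-3 the genotype difference in KCl was 2.08 ± 0.65 (edgeR adjusted p = 0.0375), lost without pmk-1 KCl 1, wild-type NaCl 2 or 3, or wild-type KCl 1, 2 or 3 (edgeR adjusted p between 0.0514 and 0.189). The salt effect on lipl-3 was -2.24 ± 0.66 in pmk-1 (edgeR adjusted p = 0.121) and -1.72 ± 0.74 in wild type (edgeR adjusted p = 1.000000).

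lipl-1 was counted 4, 16 and 4 times in pmk-1 NaCl, 32, 27 and 22 times in pmk-1 KCl, 3, 6 and 7 times in wild-type NaCl and 2, 3 and 1 times in wild-type KCl. Its wild-type level was under the low-count limit, so that it entered the test through the mutant libraries. Its call as higher in pmk-1 in KCl follows in part from the filter, and no fold between genotypes is given for it. lipl-4, a lipase linked to long life in worms that lack a germline, had 2.85, 0.566 and 0.728 CPM in pmk-1 NaCl, 4.87, 3.76 and 3.42 CPM in pmk-1 KCl, 1.45, 1.46 and 0.176 CPM in wild-type NaCl and 0.718, 0.286 and 1.103 CPM in wild-type KCl. The genotype difference of lipl-4 in KCl (log2 fold change 2.499 ± 0.77, edgeR adjusted p = 0.0356) was lost without pmk-1 KCl 1, 2 or 3, or wild-type KCl 1, 2 or 3 (edgeR adjusted p between 0.0506 and 0.125). The other two lipases, lipl-5 and lipl-7, were not called higher in pmk-1 in either salt with all libraries and no block. lipl-5 stood at 133, 135 and 157 CPM in pmk-1 NaCl, 129, 88.8 and 108 CPM in pmk-1 KCl, 132, 92.8 and 106 CPM in wild-type NaCl and 119.9, 89.4 and 88.3 CPM in wild-type KCl and passed in no comparison. In pmk-1 all NaCl libraries lay above all KCl libraries. It was called higher in pmk-1 in NaCl with the replicate block (edgeR adjusted p = 0.0365) and without the first replicates of all groups (edgeR adjusted p = 0.00617). In that second fit it was also called higher with NaCl in pmk-1 (edgeR adjusted p = 0.0222). lipl-7 was lower in the mutant, with 13.5, 19.4 and 20.03 CPM in pmk-1 NaCl, against 21.5, 29.1 and 29.2 CPM in wild-type NaCl (log2 fold change -0.595 ± 0.19, edgeR adjusted p = 0.0387), and this call was lost without pmk-1 NaCl 1, wild-type NaCl 2 or 3, or wild-type KCl 1 or 2 (edgeR adjusted p between 0.0534 and 0.136).

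Among the genes of mitochondrial fatty acid import and oxidation, cpt-6 gave the clearest change. It had 13.9, 14.1 and 14.6 CPM in pmk-1 NaCl, 25.4, 26.7 and 36.9 CPM in pmk-1 KCl, 32.6, 35.6 and 33.3 CPM in wild-type NaCl and 34.5, 29.1 and 41.5 CPM in wild-type KCl. The 3 pmk-1 NaCl libraries lay within 1 CPM of each other and below the 9 others. Salt lowered cpt-6 in pmk-1 (log2 fold change -1.06 ± 0.18, edgeR adjusted p = 0.00937), a call that no left-out library ended and that was not made when the pmk-1 libraries were fitted by themselves (edgeR adjusted p = 0.136). In NaCl cpt-6 was also lower in pmk-1 than in wild type (log2 fold change -1.25 ± 0.18, edgeR adjusted p = 0.00243), while wild type showed a salt value of -0.0498 ± 0.18 (edgeR adjusted p = 1.000000). cpt-1, the most abundant carnitine palmitoyltransferase gene, had 254, 268 and 243 CPM in pmk-1 NaCl, 353, 317 and 336 CPM in pmk-1 KCl, 303, 325 and 325 CPM in wild-type NaCl and 319, 284 and 353 CPM in wild-type KCl. It was lower in the mutant in NaCl (log2 fold change -0.32 ± 0.101, edgeR adjusted p = 0.0371), which was lost without pmk-1 NaCl 3, or wild-type NaCl 2 or 3 (edgeR adjusted p between 0.0635 and 0.109), and its salt value in pmk-1 was -0.395 ± 0.101 (edgeR adjusted p = 0.0679). cpt-2, the enzyme of the inner membrane, passed in no comparison, with all libraries between 125 and 148 CPM. cpt-3 was scarce, with 10.04, 3.51 and 0.971 CPM in pmk-1 NaCl, 9.11, 5.17 and 11.6 CPM in pmk-1 KCl, 0.668, 1.25 and 0.439 CPM in wild-type NaCl and 1.33, 1.14 and 0.802 CPM in wild-type KCl. It was higher in pmk-1 in NaCl (log2 fold change 2.62 ± 0.73, edgeR adjusted p = 0.0223) and in KCl (log2 fold change 2.97 ± 0.71, edgeR adjusted p = 0.0128). The cpt-3 calls were lost in NaCl without pmk-1 NaCl 1, or wild-type NaCl 1 or 3 (edgeR adjusted p between 0.0602 and 0.127) and in KCl without wild-type KCl 2 or 3 (edgeR adjusted p between 0.0507 and 0.06401).

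The most abundant dehydrogenase and hydratase genes, acdh-1 and ech-6, were not called in any comparison with all libraries and no block. acdh-1 had 1538, 1254 and 1708 CPM in pmk-1 NaCl, 1156, 1472 and 1428 CPM in pmk-1 KCl, 1406, 1521 and 1373 CPM in wild-type NaCl and 1731, 1535 and 1359 CPM in wild-type KCl and passed in no comparison. ech-6 stood at 919.8, 585 and 642 CPM in pmk-1 NaCl, 552, 421 and 438 CPM in pmk-1 KCl, 557, 561 and 538 CPM in wild-type NaCl and 544, 553 and 475 CPM in wild-type KCl. In the mutant all NaCl libraries of ech-6 lay above the KCl libraries by 0.61 ± 0.17, which did not pass (edgeR adjusted p = 0.0923) and passed with the replicate block (edgeR adjusted p = 0.0263) and with DESeq2 (adjusted p = 0.0294). acdh-9, whose salt value in pmk-1 was 0.54 ± 0.15 (edgeR adjusted p = 0.09603), passed with the block (edgeR adjusted p = 0.0469) and with DESeq2 (adjusted p = 0.0346) too. hacd-1, a hydroxyacyl-CoA dehydrogenase that fasting raises through NHR-49, had 48.3, 94.4 and 77.1 CPM in pmk-1 NaCl, 33.5, 87.9 and 84.01 CPM in pmk-1 KCl, 50.3, 34.9 and 40.7 CPM in wild-type NaCl and 60.2, 48.8 and 42.9 CPM in wild-type KCl. It was lower in the first replicate of both mutant groups and passed in no comparison. Without the first replicates of all groups hacd-1 was called higher in pmk-1 in NaCl (edgeR adjusted p = 6.93e-05) and in KCl (edgeR adjusted p = 0.000252). ech-7 was lower in pmk-1 in KCl, with 17.2, 25.02 and 20.9 CPM in pmk-1 KCl, against 40.9, 42.01 and 34.4 CPM in wild-type KCl (log2 fold change -0.89 ± 0.17, edgeR adjusted p = 0.00491), and no left-out library ended this call. In NaCl ech-7 stood at -0.32 ± 0.16 (edgeR adjusted p = 0.158).

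acdh-7 and acdh-10, of the medium-chain acyl-CoA dehydrogenase type, were the members called lower in pmk-1 in both salts. acdh-7 had 74.5, 67.9 and 71.5 CPM in pmk-1 NaCl, 72.6, 63.3 and 76.2 CPM in pmk-1 KCl, 92.3, 114 and 95.3 CPM in wild-type NaCl and 95.5, 103 and 109 CPM in wild-type KCl. acdh-10 had 99.8, 81.8 and 84.4 CPM in pmk-1 NaCl, 106, 72.9 and 93.02 CPM in pmk-1 KCl, 111, 135 and 121 CPM in wild-type NaCl and 119, 136 and 137 CPM in wild-type KCl. For both genes the mutant libraries lay below the wild-type libraries in each salt. For acdh-7 the differences were -0.49 ± 0.11 in NaCl (edgeR adjusted p = 0.0101, lost without wild-type NaCl 2 (edgeR adjusted p = 0.0523)) and -0.54 ± 0.11 in KCl (edgeR adjusted p = 0.00791). For acdh-10 they were -0.46 ± 0.14 in NaCl (edgeR adjusted p = 0.03502) and -0.53 ± 0.14 in KCl (edgeR adjusted p = 0.0221), and those calls were lost in NaCl without pmk-1 NaCl 2 or 3, or wild-type NaCl 2 or 3 (edgeR adjusted p between 0.067995 and 0.123) and in KCl without pmk-1 KCl 2 or 3, or wild-type KCl 2 or 3 (edgeR adjusted p between 0.0521 and 0.0909). The genes are neighbours on the minus strand of chromosome X in WBcel235, acdh-10 from 17213144 to 17214903 and acdh-7 from 17215018 to 17217105, with 114 bases between them. acdh-4 was higher in the mutant, with 23.3, 9.17 and 7.41 CPM in pmk-1 NaCl, 15.2, 5.64 and 6.63 CPM in pmk-1 KCl, 3.45, 2.08 and 2.63 CPM in wild-type NaCl and 3.69, 1.14 and 1.203 CPM in wild-type KCl. Its differences were 2.28 ± 0.59 in NaCl (edgeR adjusted p = 0.0166) and 2.18 ± 0.601 in KCl (edgeR adjusted p = 0.0226), lost in NaCl without pmk-1 NaCl 1, or wild-type NaCl 2 or 3 (edgeR adjusted p between 0.0661 and 0.0745) and in KCl without pmk-1 KCl 1, or wild-type KCl 2 or 3 (edgeR adjusted p between 0.0839 and 0.0979).

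In the peroxisomal branch, acox-3 fell with NaCl and acox-1.6 rose. ACOX-3 and ACOX-1.1 are acyl-CoA oxidases that shorten ascaroside side chains. acox-3 had 31.4, 33.2 and 26.6 CPM in pmk-1 NaCl, 71.5, 82.4 and 76.8 CPM in pmk-1 KCl, 30.3, 28.8 and 23.5 CPM in wild-type NaCl and 71.2, 48.01 and 36.99 CPM in wild-type KCl. The salts did not overlap in either genotype, and the NaCl libraries of the genotypes overlapped. Salt lowered acox-3 in pmk-1 (log2 fold change -1.34 ± 0.21, edgeR adjusted p = 0.00671), which no left-out library and no other setting tried ended. In wild type the value was -0.92 ± 0.21 (edgeR adjusted p = 0.155), which passed with the replicate block (edgeR adjusted p = 0.03501) and with DESeq2 (adjusted p = 0.00555). The difference between the salt effects was -0.42 ± 0.297 (edgeR adjusted p = 0.99997). acox-1.1 followed the same order in the mutant, with 20.5, 21.4 and 19.5 CPM in pmk-1 NaCl, 37.7, 30.9 and 34.6 CPM in pmk-1 KCl, 16.5, 16.5 and 20.1 CPM in wild-type NaCl and 28.4, 19.8 and 19.5 CPM in wild-type KCl, and its salt value in pmk-1 was -0.75 ± 0.18 (edgeR adjusted p = 0.0511; 0.0318 with the replicate block). In KCl acox-1.1 was called higher in pmk-1 than in wild type. That call was lost without pmk-1 KCl 1 or 3, or wild-type KCl 2 or 3 (edgeR adjusted p between 0.05497 and 0.118). Of genes of the later steps of this branch, which are no members, daf-22, the thiolase, stood at -0.53 ± 0.14 (edgeR adjusted p = 0.07199), maoc-1, the hydratase, at -0.53 ± 0.17 (edgeR adjusted p = 0.162) and dhs-28, the dehydrogenase, at -0.34 ± 0.20003 (edgeR adjusted p = 0.516) for salt in pmk-1.

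acox-1.6 had 203, 94.4 and 94.3 CPM in pmk-1 NaCl, 58.1, 25.9 and 32.1 CPM in pmk-1 KCl, 55.3, 32.5 and 25.7 CPM in wild-type NaCl and 34.7, 31.6 and 19.05 CPM in wild-type KCl. The pmk-1 NaCl libraries lay above the 9 others, with the first replicate highest in every group. The rise with NaCl in pmk-1 (log2 fold change 1.75 ± 0.41, edgeR adjusted p = 0.0475) was lost without pmk-1 NaCl 1, 2 or 3, pmk-1 KCl 2 or 3, wild-type NaCl 2 or 3, or wild-type KCl 1, 2 or 3 (edgeR adjusted p between 0.057001 and 0.222). In NaCl acox-1.6 was also higher in pmk-1 than in wild type (log2 fold change 1.79 ± 0.41, edgeR adjusted p = 0.0102), lost without wild-type NaCl 2 or 3 (edgeR adjusted p between 0.0502 and 0.0512). acox-1.4 had 46.8, 25.4 and 19.7 CPM in pmk-1 NaCl, 32.4, 17.6 and 14.5 CPM in pmk-1 KCl, 9.13, 14.04 and 17.9 CPM in wild-type NaCl and 7.28, 7.72 and 10.9 CPM in wild-type KCl, with every mutant library above the wild-type libraries of the same salt. Its differences were 1.16 ± 0.39 in NaCl (edgeR adjusted p = 0.0482) and 1.31 ± 0.398 in KCl (edgeR adjusted p = 0.0338). These acox-1.4 calls were lost in NaCl without pmk-1 NaCl 1 or 2, pmk-1 KCl 2 or 3, wild-type NaCl 1, 2 or 3, or wild-type KCl 1, 2 or 3 (edgeR adjusted p between 0.0526 and 0.238) and in KCl without pmk-1 KCl 1, or wild-type KCl 1, 2 or 3 (edgeR adjusted p between 0.0663 and 0.133). acox-1.1 to acox-1.4 lie in a row on chromosome I, with gaps of 52, 343 and 34 bases.

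**Figure D4:**
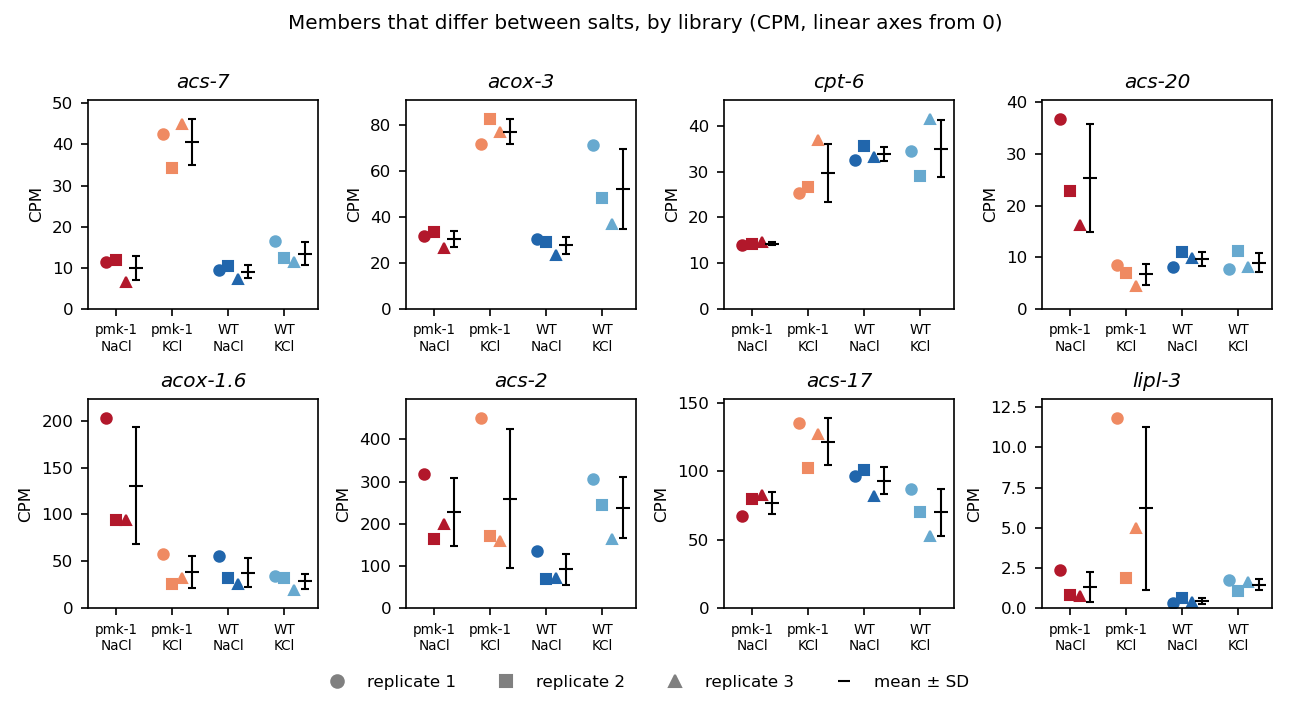
CPM of 8 members in each library, by group, with replicate numbers as symbols and the group mean ± SD (n = 3) beside them. acs-7 and acox-3 are lower in NaCl than in KCl in both genotypes, cpt-6 is lowest and acs-20 and acox-1.6 highest in pmk-1 NaCl, and the salts overlap for acs-2 in pmk-1 and not in wild type.

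icl-1, which combines isocitrate lyase and malate synthase and lets worms make sugar from fat, had 1754, 857 and 820.1 CPM in pmk-1 NaCl, 2265, 955 and 1075 CPM in pmk-1 KCl, 844, 835 and 685 CPM in wild-type NaCl and 1196, 930.3 and 662 CPM in wild-type KCl. The first mutant replicate was the highest in both salts, and no comparison passed (log2 values between -0.32 and 0.62). fmo-2, a flavin-containing monooxygenase raised by fasting and linked to life span, was rare, with 0.414 to 4.45 CPM over the 12 libraries, and passed in no comparison. Some of these patterns run along the replicate number. The first replicate was the highest of its group in all 4 groups for 18 of 80 members (22.5%), against 13.6% of all genes tested, among them icl-1, acs-2, fat-1, fat-4 and acox-1.6, and the lowest in all 4 groups for 2 (2.5%), acs-1 and acs-13, against 9.44%. The labels do not say what sets the first replicates apart.

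A group of 8 members was counted almost only in the mutant: acs-6, acs-10, acs-15, acs-18, acdh-5, acdh-8, elo-7 and elo-8. All were called higher in pmk-1 in both salts. In wild type fewer than 3 libraries reached the low-count limit for each of them, as for 10 members (12.5%) and 13.1% of all tested genes. In pmk-1 this was so for 1 member (1.25%) and 5.56% of genes. They passed the filter through the libraries in which they were high, so their calls follow in part from the filter. Their levels moved with the sperm markers. acdh-8 had 86.1, 26.6 and 19.9 CPM in pmk-1 NaCl, 56.2, 17.5 and 16.4 CPM in pmk-1 KCl, 2.89, 0.416 and 0.263 CPM in wild-type NaCl and 1.54, 0.381 and 0 CPM in wild-type KCl. acs-18 had 43.5, 12.1 and 9.35 CPM in pmk-1 NaCl, 30.9, 8.56 and 8.29 CPM in pmk-1 KCl, 0.779, 0 and 0 CPM in wild-type NaCl and 0.821, 0.0953 and 0 CPM in wild-type KCl. In these genes the first replicate was the highest of both mutant groups, as it was for the sperm marker sum, which was 2532, 1029 and 795 CPM in pmk-1 NaCl and 1609, 775 and 692 CPM in pmk-1 KCl. In wild type the sum was 109, 13.8 and 12.5 CPM in NaCl and 69.1, 14.6 and 6.72 CPM in KCl, again highest in the first replicates. elo-7 was counted 60, 11 and 9 times in pmk-1 NaCl, 33, 20 and 7 times in pmk-1 KCl, 0, 0 and 1 times in wild-type NaCl and 0, 0 and 1 times in wild-type KCl. Against 1 count in each wild-type group, no fold between genotypes is given for it here. The other 7 were also under the low-count limit in wild type and entered the test through the mutant libraries. Their folds and p-values are likewise not given here, because they are no test of a genotype difference. The elo-8 calls were lost in NaCl without pmk-1 NaCl 1, or wild-type NaCl 2 or 3 (edgeR adjusted p between 0.0599 and 0.0653) and in KCl without pmk-1 KCl 1, or wild-type KCl 2 or 3 (edgeR adjusted p between 0.0935 and 0.0999). In KCl the calls of acs-10, acdh-5 and acs-15 were lost without wild-type KCl 2 or 3 (edgeR adjusted p between 0.0512 and 0.06697). The part of sperm content in these differences was not tested.

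**Figure D5:**
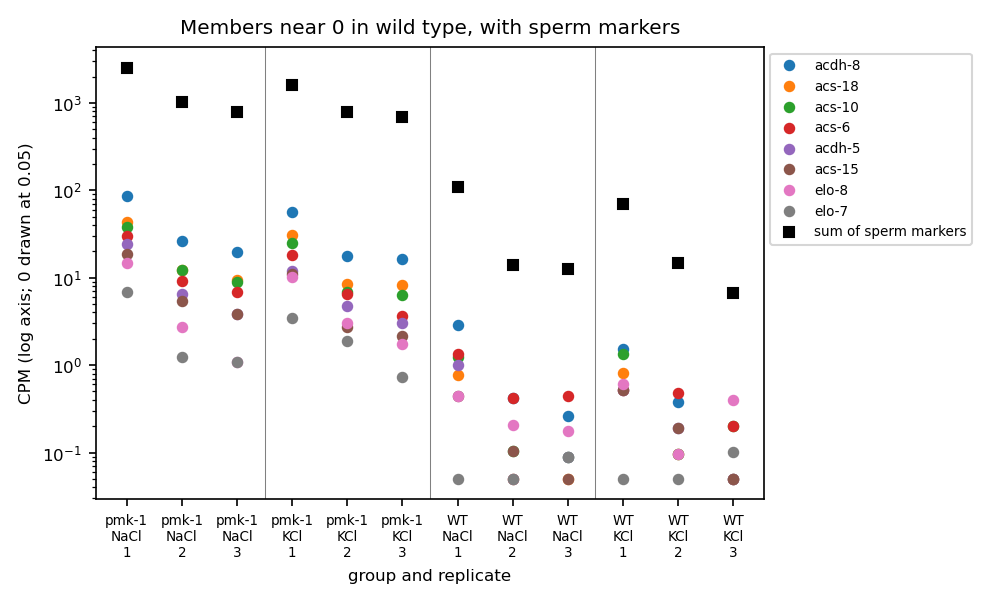
CPM on a log axis, with 0 drawn at 0.05, of the 8 members that were nearly silent in wild type and of the sum of 20 sperm marker genes, in each library by group and replicate. In both mutant groups the first replicate is the highest for the 8 members and for the sperm sum, and the wild-type libraries lie well below.

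Genes of fat metabolism outside the set were read for comparison. Of 19 regulators, mxl-3 rose with NaCl in pmk-1 and 18 did not pass, where 2.33% of all tested genes rose and 0.382% fell. mxl-3 had 72.7, 114 and 93.97 CPM in pmk-1 NaCl, 20.1, 41.9 and 37.2 CPM in pmk-1 KCl, 31.1, 38.5 and 33.2 CPM in wild-type NaCl and 33.1, 35.4 and 29.1 CPM in wild-type KCl. The pmk-1 NaCl libraries lay above all others, by 1.4996 ± 0.25 over pmk-1 KCl (edgeR adjusted p = 0.00842) and 1.45 ± 0.25 over wild-type NaCl (edgeR adjusted p = 0.004100), and no left-out library ended either call. The salt call of mxl-3 was not made when the pmk-1 libraries were fitted by themselves (edgeR adjusted p = 0.152). nhr-80, a receptor that acts on the delta-9 desaturases, had 13.4, 10.8 and 9.59 CPM in pmk-1 NaCl, 13.7, 11.4 and 11.9 CPM in pmk-1 KCl, 5.01, 5.93 and 4.65 CPM in wild-type NaCl and 6.77, 5.62 and 5.31 CPM in wild-type KCl. It was higher in pmk-1 in NaCl (log2 fold change 1.11 ± 0.22, edgeR adjusted p = 0.00591) and in KCl (log2 fold change 1.06 ± 0.22, edgeR adjusted p = 0.00704). nhr-49 and hlh-30 passed in no comparison, with salt values in pmk-1 of 0.24 ± 0.093 (edgeR adjusted p = 0.2702) and -0.057 ± 0.198 (edgeR adjusted p = 0.915). Between genotypes, 4 of the 19 regulators were called higher and 1 lower in NaCl, where 16.7% and 10.1% of all tested genes were. In KCl 3 were called higher and 0 lower, where 15.2% and 9.18% were.

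Of 8 genes of propionate breakdown, 3 rose with NaCl in pmk-1 and 0 fell, where 2.33% of all tested genes rose and 0.382% fell. No call was made for any of these 3 when the pmk-1 libraries were fitted by themselves (edgeR adjusted p = 0.108 for hphd-1, 0.173 for hach-1 and 0.271 for pcca-1). hphd-1, the dehydrogenase of the propionate shunt, had 609, 448 and 543 CPM in pmk-1 NaCl, 299, 307 and 286 CPM in pmk-1 KCl, 528, 588 and 575 CPM in wild-type NaCl and 507, 549 and 440.1 CPM in wild-type KCl. The pmk-1 KCl libraries lay below the 9 others. Its rise with NaCl in pmk-1 (log2 fold change 0.85 ± 0.13, edgeR adjusted p = 0.00496) and its lower level in pmk-1 than in wild type in KCl (log2 fold change -0.75 ± 0.13, edgeR adjusted p = 0.00373) were ended by no left-out library. hach-1, the hydrolase of the shunt, had 710.3, 546 and 634 CPM in pmk-1 NaCl, against 414, 408 and 402 CPM in pmk-1 KCl (log2 fold change 0.63 ± 0.12, edgeR adjusted p = 0.0182), a call lost without pmk-1 NaCl 1 or 3, or pmk-1 KCl 2 or 3 (edgeR adjusted p between 0.0837 and 0.123). pcca-1, of propionyl-CoA carboxylase, had 351, 327 and 338 CPM in pmk-1 NaCl, against 275, 229 and 241 CPM in pmk-1 KCl (log2 fold change 0.45 ± 0.099, edgeR adjusted p = 0.0355), lost without pmk-1 NaCl 1, 2 or 3, pmk-1 KCl 2 or 3, wild-type NaCl 1, 2 or 3, or wild-type KCl 1, 2 or 3 (edgeR adjusted p between 0.0539 and 0.2104). Of 8 further genes of beta-oxidation, kat-1, a thiolase, rose with NaCl in pmk-1 (log2 fold change 0.65 ± 0.15, edgeR adjusted p = 0.0404), and of 8 lipid-binding proteins tested, lbp-6 did (log2 fold change 0.82 ± 0.18, edgeR adjusted p = 0.0357). The kat-1 call was lost without pmk-1 NaCl 1, 2 or 3, pmk-1 KCl 2 or 3, wild-type NaCl 1, 2 or 3, or wild-type KCl 1, 2 or 3 (edgeR adjusted p between 0.0569 and 0.196) and the lbp-6 call without pmk-1 NaCl 1 or 3, pmk-1 KCl 2 or 3, wild-type NaCl 1, 2 or 3, or wild-type KCl 1 or 3 (edgeR adjusted p between 0.0546 and 0.208). Neither was called when the pmk-1 libraries were fitted by themselves (edgeR adjusted p = 0.269 for kat-1 and 0.2801 for lbp-6). Of 12 genes of fat synthesis and lipid droplets, 0 passed with salt in pmk-1, 0 rose and 1 fell between genotypes in NaCl, and 0 rose and 2 fell in KCl. Of all tested genes, 16.7% were called higher and 10.1% lower between genotypes in NaCl, and 15.2% and 9.18% in KCl. The salt counts in pmk-1 stand beside the 2.33% and 0.382% given above. In wild type salt moved 0 genes of these 5 lists past the threshold with edgeR, where 0.172% of all tested genes rose and 0.015% fell.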

How the data were processed

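The submitters' processing notes name DESeq2 1.40.2, RSEM 1.3.3, STAR 2.7.1a and R 4.3.1. What each was used for, the build, the annotation and the strandedness: not given in the sources used here. The authors deposited 1 expected count per gene and library, and all values were whole numbers, so rounding changed none. Of 46904 identifiers, 46817 matched Ensembl release 115 of WBcel235, which gave exon lengths, neighbours and overlaps.

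Counts kept by filterByExpr were scaled by TMM and fitted in edgeR 4.0.16 (R 4.3.3, quasi-likelihood, all 12 libraries in 1 fit, 1 mean per group), with Benjamini-Hochberg adjustment over the 13353 genes tested. The biological coefficient of variation was 0.299. DESeq2 1.42.0 was an alternative. The standard error after ± is the log2 fold change divided by the square root of the F statistic. The 5 comparisons were NaCl against KCl in each genotype, pmk-1 against wild type in each salt, and the difference of the salt effects. Where they share libraries, their values stand side by side and their overlap is no result. P-values measure the spread between the libraries the labels call biological replicates.

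The members and lists were chosen with earlier results of these data known. Named by rule were, per comparison, members with an adjusted p under 0.05 and a mean of at least 5 CPM, at most 8 each way, and acs-2, fat-5 to fat-7, lipl-1 to lipl-5, cpt-3, acdh-1, ech-6, hacd-1, icl-1 and fmo-2. Other genes were named after their values were seen. Replicate numbers were taken to pair libraries where every same-numbered pair deviated together (correlation over 0.1). This rule did not ask whether same-numbered pairs correlated more than other pairs. The rule was met for salt in pmk-1 (0.391 to 0.743), salt in wild type (0.197 to 0.629) and genotype in NaCl (0.226 to 0.423), and not for genotype in KCl (0.0717 to 0.431). The fit was tested on simulated data, where 46 of 100 genes changed by 2-fold and 89 of 100 changed by 4-fold were recovered for salt in pmk-1. The changed genes averaged at least 5 CPM, and all groups otherwise shared 1 mean per gene. No first-replicate effect and no genotype difference was simulated, so recovery in the real libraries, and of rarer members, was not tested. Alternatives were other size factors, no filter, DESeq2, the block, each library left out, the first replicates left out, an embryo score covariate and only the groups compared.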

Additional observations from a re-analysis of the deposited data

Results flagged for a closer look

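lipl-1, a rare lysosomal lipase gene, had salt values of opposite sign in the genotypes, neither of which passed: -1.54 ± 0.54 in pmk-1 (edgeR adjusted p = 0.208) and 1.36 ± 0.69 in wild type (edgeR adjusted p = 1). It was counted 4, 16 and 4 times in pmk-1 NaCl, against 32, 27 and 22 times in pmk-1 KCl, and 3, 6 and 7 times in wild-type NaCl, against 2, 3 and 1 times in wild-type KCl. Each mutant NaCl library lay below each mutant KCl library, and each wild-type NaCl library at or above 3 counts, the highest of wild-type KCl. The difference of the salt effects was -2.90 ± 0.88 on the log2 scale, which did not pass over all genes (edgeR adjusted p = 0.489).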

How the results depend on the processing

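Counts of members called higher and lower depended on the setting. For salt in pmk-1, beside 3 and 3, they were 5 and 8 with DESeq2, 7 and 10 without the first replicates of all 4 groups, 5 and 6 with the replicate block, 3 and 6 with the embryo score covariate and 0 and 2 in a fit of only the groups compared. Over all genes, beside 311 and 51, these settings gave, in that order, 509 and 154, 571 and 499, 533 and 146, 397 and 126, and 43 and 5. For salt in wild type, beside 0 and 0, 2 were lower without the first replicates, with DESeq2 or with the block, and 1 with the embryo covariate or only the groups compared. Over all genes, beside 23 and 2, these settings gave, in that order, 104 and 30, 106 and 27, 108 and 23, 51 and 20, and 133 and 21. For genotype in NaCl, beside 22 and 5, the member counts were 0 and 0 with the embryo covariate, and 3 were lower without the low-count filter. Over all genes, beside 2232 and 1349, the covariate gave 3 and 65, and 1264 were lower without the filter. For genotype in KCl, beside 27 and 5, the member counts were 0 and 1 with the embryo covariate, and 3 were lower in a fit of only the groups compared. Over all genes, beside 2031 and 1226, the covariate gave 2 and 119, and 992 were lower in the fit of only the groups compared. For the difference of the salt effects, beside 0 and 0, the member counts were 2 and 3 with DESeq2, 1 and 1 without the first replicates and 1 and 0 with the embryo covariate. Over all genes, beside 5 and 0, these settings gave, in that order, 81 and 28, 58 and 39, and 45 and 6. Leaving out 1 library gave 0 to 4 members higher and 3 to 5 lower for salt in pmk-1, 12 to 25 and 1 to 7 for genotype in NaCl, 10 to 31 and 2 to 7 for genotype in KCl, and 0 otherwise. Over all genes it gave 97 to 418 higher and 13 to 132 lower for salt in pmk-1. For genotype it gave 1064 to 2651 and 625 to 1740 in NaCl, and 822 to 2686 and 568 to 1787 in KCl. The replicate block changed the direction of none of the 77 single calls and ended none. It gave 25 and 7 for genotype in NaCl, beside 3123 and 2221 over all genes. For genotype in KCl, where the rule for pairing was not met, it gave 31 and 7, beside 2859 and 1959 over all genes. There pmk-1 KCl 2 correlated more with wild-type KCl 3 (r = 0.279 across genes) than with number 2 (r = 0.0717). Such crossing was also seen where the rule was met. pmk-1 NaCl 2 correlated more with pmk-1 KCl 3 (r = 0.520) than with number 2 (r = 0.391). Wild-type NaCl 2 correlated more with wild-type KCl 3 (r = 0.256) than with number 2 (r = 0.197). It also correlated more with pmk-1 NaCl 3 (r = 0.243) than with pmk-1 NaCl 2 (r = 0.226). The cause was not tested.

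Of the 77 single calls, which are all calls of members and those of the named genes outside the set, the embryo covariate kept 13, ended 34 and turned 30. No other setting turned one. It does not overlap between the genotypes, so genotype and embryo content cannot be told apart. Under it the log2 values in NaCl were -2.36 for elo-8, -0.021 for fat-1, -0.19 for fat-3, -0.044 for acs-10, 0.071 for lipl-7, -0.53 for acox-1.4, -0.25 for acs-20, -2.01 for acs-2, -0.64 for lipl-2, -0.99 for acox-1.6, -0.997 for acdh-5, -0.21 for acs-22, -0.057 for acdh-8, -0.46 for acs-15, -1.40 for acdh-4 and -1.22 for acs-6. In KCl they were -0.40 for elo-7, -3.02 for elo-8, -0.12 for fat-3, -0.94 for acs-10, -0.40 for acox-1.4, -0.69 for acs-14, -1.199 for acdh-5, -0.014 for acs-22, -1.73 for acs-15, -0.70 for lipl-3, -0.43 for acs-3, -1.39 for acdh-4, 0.080 for acs-13 and -1.16 for acs-6. Rare members such as elo-7, lipl-1 and acs-9 rest on few counts.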

Other observations

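Several members not described above passed between genotypes in KCl. ech-8, an enoyl-CoA hydratase family gene, had 19.7, 18.2 and 18.7 CPM in pmk-1 KCl, against 9.03, 8.67 and 10.4 CPM in wild-type KCl (log2 fold change 1.01 ± 0.28, edgeR adjusted p = 0.0229), without overlap between the genotypes, and the call was lost without pmk-1 KCl 1, or wild-type KCl 1, 2 or 3 (edgeR adjusted p between 0.0534 and 0.0827). acs-3 had 35.2, 14.8 and 20.8 CPM in pmk-1 KCl, against 10.7, 8.86 and 10.2 CPM in wild-type KCl (log2 fold change 1.25 ± 0.34, edgeR adjusted p = 0.0216), lost without pmk-1 KCl 1, or wild-type KCl 2 or 3 (edgeR adjusted p between 0.0727 and 0.08401). acs-16 had 7.35, 5.46 and 7.15 CPM in pmk-1 KCl, against 3.49, 1.91 and 1.002 CPM in wild-type KCl (log2 fold change 1.64 ± 0.42, edgeR adjusted p = 0.0168), lost without wild-type KCl 2 or 3 (edgeR adjusted p between 0.0602 and 0.0673). These were chosen after their values were seen.

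Single libraries stood out for rare members. ech-9 had 3.31, 0.792 and 1.21 CPM in pmk-1 NaCl, 2.28, 1.69 and 5.18 CPM in pmk-1 KCl, 6.23, 1.56 and 2.11 CPM in wild-type NaCl and 27.4, 2.48 and 1.604 CPM in wild-type KCl, so that the first wild-type KCl library was several times above the 11 others. elo-4 had 8.22, 0.792 and 1.46 CPM in pmk-1 NaCl, 1.66, 1.03 and 1.97 CPM in pmk-1 KCl, 1.22, 1.46 and 1.32 CPM in wild-type NaCl and 0.718, 1.14 and 0.902 CPM in wild-type KCl, with the first pmk-1 NaCl library above the 11 others. Outside the set, lbp-1, a fatty acid-binding protein gene, was lower in the mutant, with 30.1, 39.4 and 38.7 CPM in pmk-1 NaCl, 48.9, 44.8 and 54.5 CPM in pmk-1 KCl, 102, 133 and 121 CPM in wild-type NaCl and 101, 124 and 153 CPM in wild-type KCl. Its differences were -1.72 ± 0.17 in NaCl (edgeR adjusted p = 0.000548) and -1.35 ± 0.17 in KCl (edgeR adjusted p = 0.00106), which no left-out library ended.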
